A study of Mus musculus with 34 samples.

Results

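The livers described here are 7 mouse livers given a guide RNA against Tbx3 and 6 control livers given a guide against GFP (sgGFP, 4 livers) or LacZ (sgLacZ, 2 livers), sequences that the mouse genome does not carry. They are 13 of the 34 livers of a series that also holds 21 livers given guides against Bcl6, Irs1, Smyd2 or Srebf1. RNA was sequenced from each liver, and the values are FPKM, which scale fragment counts by transcript length and by library. All mice, controls included, were C57BL/6, homozygous for a Cas9 gene under a tetracycline-responsive promoter (TetO-Cas9) and for its activator at the Rosa locus (Rosa-rtTA). All received an adeno-associated virus (AAV) with a guide RNA, which let Cas9 cut the chosen gene, and ate a Western diet for 3 months. The sources used here give neither age nor sex, nor the share of liver cells that carried an edit. The groups are called Tbx3 KO and control after their labels. Of 35976 gene symbols, the 17364 with at least 1 FPKM in at least 5 of the 13 livers were tested. The labels number the livers without naming the animals, so if any came from the same animal, the p-values speak only for the spread among these 13 samples.

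Tbx3 is a T-box transcription factor that acts mainly as a repressor, and in the liver it is known as a target of Wnt/beta-catenin signalling. That signal comes from the central vein and sets the zones of the liver lobule. Pericentral hepatocytes carry much of glutamine synthesis and drug metabolism, while periportal hepatocytes, at the entry of the blood, carry urea synthesis and amino acid breakdown.

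The depth implied by the steps of the FPKM values was 2110000 to 3130000 counted reads per liver in Tbx3 KO and 2300000 to 2660000 in control. Hepatocyte markers were present in all 13 livers, summing to 75540 to 103200 FPKM over 10 genes. Of 15 listed markers of pancreas, gut, muscle and fat, 5 (Cpa1, Pnlip, Myh4, Ckm and Mb) were at 0 in all 13 livers. The 15 summed to 255.4 to 530.2 FPKM in Tbx3 KO and 296.4 to 478 FPKM in control. Tbx3 KO replicate 7 stood apart from the other 6 Tbx3 KO livers. Its values correlated with the control livers at a mean Pearson r of 0.948 and with the other Tbx3 KO livers at 0.939. In every other Tbx3 KO liver the correlation with Tbx3 KO was the higher. The measure did not separate the groups, however. The controls sgGFP replicate 4, sgLacZ replicate 1 and sgLacZ replicate 2 also correlated more with Tbx3 KO (0.950, 0.953 and 0.954) than with the other controls (0.947, 0.951 and 0.952). Replicate 7 had the most genes at 1 FPKM or more (17466) and also the highest implied depth (3130000). Each result is therefore also given without it where it matters. Tbx3 mRNA itself (GRCm38, GENCODE M21 annotation: chromosome 5, 119670669 to 119684724, plus strand) stood at 80.1 to 248 FPKM (median 104) in Tbx3 KO and 45.9 to 147 FPKM (median 86.1) in control. The groups overlapped, the lowest Tbx3 KO liver being replicate 7, and the difference did not pass the test (limma log2 change 0.45 ± 0.29 SE, adjusted p = 0.504), so this level cannot serve as a check of the labels. In bulk tissue, fewer cells of a type and less RNA per cell cannot be told apart, which holds for every level below.

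Tbx3 KO livers carried more RNA for the urea cycle enzymes Cps1, Arg1 and Ass1, for the glutaminase Gls2, for the histidine-degrading enzyme Hal and for the estrogen sulfotransferase Sult1e1. They carried less RNA for the tight junction protein Cldn2, the lipoprotein receptor Vldlr, several cytochrome P450 enzymes and organic anion transporters. In limma's test on log2(FPKM + 1), with p-values adjusted over all 17364 genes by the Benjamini-Hochberg method and a threshold of 0.05, 118 genes passed (0.68% of those tested). Of these, 52 were higher in Tbx3 KO (0.299%) and 66 lower (0.38%), and 23 of the higher and 42 of the lower genes changed at least 2-fold on that scale. In 77 of the 118 genes all 7 Tbx3 KO livers lay beyond every control liver, and in 114 at least 6 did, against 157 and 680 genes among all those tested. The median change over all genes tested was -0.059. Without replicate 7 the count rose to 588 (3.39%), with 214 higher (1.23%) and 374 lower (2.15%), and all 118 were among them in the same direction. The counts were sensitive to single livers and ran from 43, without sgGFP replicate 1, to 588. Without Tbx3 KO replicate 1, 2, 3, 4 or 5 they stood at 57, 62, 70, 56 and 68, and without sgGFP replicate 2 or sgLacZ replicate 1 or 2 at 65, 65 and 61. For 36 of the 118 genes the call held whichever liver was left out, and no called gene turned its direction under any alternative run.

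**Figure D1:**
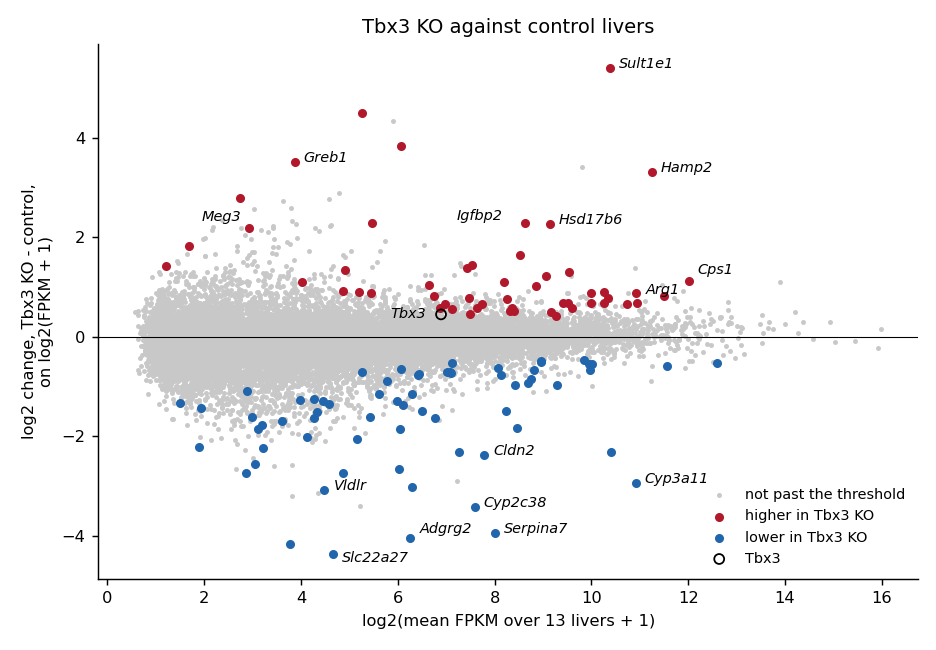
Each point is a gene. The x axis gives log2 of its mean FPKM over 13 livers plus 1, and the y axis its log2 change, Tbx3 KO minus control, with the 52 higher genes in red, the 66 lower genes in blue and Tbx3 ringed. Sult1e1 lies highest among the called genes and Slc22a27 lowest, while Tbx3 lies among the genes that did not pass.

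The gene that rose furthest was Sult1e1, the estrogen sulfotransferase, which inactivates estrogens by adding sulfate (chromosome 5, 87575969 to 87591594, minus strand). It stood at 349 to 3703 FPKM (median 2512) in Tbx3 KO and 6.28 to 418 FPKM (median 42.5) in control (limma log2 change 5.40 ± 0.76 SE, adjusted p = 0.00342). Replicate 7, at 349 FPKM, was the only Tbx3 KO liver inside the control range, and the other 6 lay above every control. Greb1, an estrogen-responsive gene in other tissues (chromosome 12, 16670615 to 16800886, minus strand), stood at 6.95 to 40.3 FPKM (median 26.1) against 0 to 5.10 FPKM (median 0.401) (limma log2 change 3.51 ± 0.52 SE, adjusted p = 0.00447). No Tbx3 KO liver overlapped the controls, and replicate 7 lay at the Tbx3 KO median. AW549542, a gene without a described function, rose from 6.53 ± 2.22 to 117 ± 47.3 FPKM (limma log2 change 3.84 ± 0.38 SE, adjusted p = 0.000111), again with no overlap, although replicate 7 was lowest at 24.6 FPKM.

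Secreted proteins and receptors followed. Igfbp2, which binds insulin-like growth factors in blood (chromosome 1, 72824503 to 72852474, plus strand), stood at 514 to 784 FPKM (median 562) in Tbx3 KO against 70.5 to 202 FPKM (median 131) in control (limma log2 change 2.28 ± 0.19 SE, adjusted p = 4.12e-05). All 7 Tbx3 KO livers lay far above every control, replicate 7 at 546 FPKM included. Ntrk2, the receptor of brain-derived neurotrophic factor (chromosome 13, 58806569 to 59133970, plus strand), was as clearly separated, at 206 to 293 FPKM (median 266) against 54.2 to 122 FPKM (median 101) (limma log2 change 1.44 ± 0.16 SE, adjusted p = 0.000349). Ces1b, a carboxylesterase with close relatives in its cluster, rose from 96.2 ± 42.4 to 238 ± 26.5 FPKM (limma log2 change 1.39 ± 0.20 SE, adjusted p = 0.00388) with no overlap. Hamp2, a second copy of the gene for the iron hormone hepcidin, stood at 391 to 8121 FPKM (median 3450.5) against 71.5 to 711 FPKM (median 393) (limma log2 change 3.30 ± 0.66 SE, adjusted p = 0.0355). Replicate 7 lay among the controls, and the related gene Hamp did not pass (2353 ± 1506 against 1818 ± 1940.0 FPKM, limma adjusted p = 0.727). How reads were split between the related genes is uncertain. The call of Hamp2 ended without Tbx3 KO replicates 1, 2, 3, 4, 5 or 6, sgGFP replicates 1 or 2, sgLacZ replicates 1 or 2 (adjusted p up to 0.0921). Susd4, an inhibitor of complement, rose from 14.6 ± 8.75 to 67.8 ± 26.3 FPKM (limma log2 change 2.28 ± 0.45 SE, adjusted p = 0.0335). The call of Susd4 ended without Tbx3 KO replicates 1, 2, 3, 4, 5 or 6, sgGFP replicate 1, sgLacZ replicate 1 (adjusted p up to 0.0864).

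2 RNAs without a protein product were among the furthest risen. Meg3, an imprinted long noncoding RNA (chromosome 12, 109541001 to 109571726, plus strand), stood at 3.93 to 21.2 FPKM (median 9.69) against 0.414 to 2.98 FPKM (median 1.45) (limma log2 change 2.18 ± 0.40 SE, adjusted p = 0.0217), with every Tbx3 KO liver above every control and replicate 7 the lowest. Its call ended without Tbx3 KO replicates 2 or 4, sgGFP replicate 1, sgLacZ replicate 2 (adjusted p up to 0.0559). Snord104, a small nucleolar RNA that guides methylation of ribosomal RNA, stood at 4.99 to 25.6 FPKM (median 5.75) in Tbx3 KO, while 5 of 6 controls were listed at 0 (limma log2 change 2.79 ± 0.48 SE, adjusted p = 0.0163). A few reads carry these values. The remaining control, sgLacZ replicate 2, stood at 5.17 FPKM, inside the Tbx3 KO range and close to its lowest livers. Whether those livers differ from it by more than library depth was not tested. The call of Snord104 ended without sgGFP replicate 1 (adjusted p up to 0.0503).

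Genes of the periportal hepatocyte that passed were all higher in Tbx3 KO. Of 26 tested members of a list of periportal genes, 8 rose and none fell, and 24 of the 26 changes were above 0, with a median of 0.78 against -0.059 over all genes. Among all genes tested, 0.299% rose and 0.38% fell. Without replicate 7, 15 periportal genes rose and none fell, where 1.23% of all genes tested rose and 2.15% fell. The main count was 5 without Tbx3 KO replicate 2, sgGFP replicate 1 or 2, or sgLacZ replicate 1 or 2, and it ran from 2 to 15 over all alternatives. The summed level of the list was 44740 to 55880 FPKM in Tbx3 KO and 30610 to 40570 in control, without overlap and with replicate 7 the lowest Tbx3 KO liver.

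The urea cycle, which turns ammonia into urea, was represented by 3 of its enzymes. Cps1, which captures ammonia in the mitochondrion (chromosome 1, 67123026 to 67231259, plus strand), stood at 5073 to 6021 FPKM (median 5223) in Tbx3 KO and 1916 to 3572 FPKM (median 2429.9) in control (limma log2 change 1.12 ± 0.13 SE, adjusted p = 0.000438). The groups were well separated and replicate 7 lay with the other Tbx3 KO livers. Arg1, which releases urea (chromosome 10, 24915221 to 24927484, minus strand), rose from 1497 ± 256 to 2378 ± 220.2 FPKM (limma log2 change 0.68 ± 0.11 SE, adjusted p = 0.00861), with replicate 7 at 2177 FPKM above every control. Ass1, which joins citrulline and aspartate, rose from 1338 ± 282 to 2469.5 ± 612 FPKM (limma log2 change 0.88 ± 0.16 SE, adjusted p = 0.0237). The call of Ass1 ended without Tbx3 KO replicates 2, 4 or 5, sgGFP replicates 1 or 2, sgLacZ replicates 1 or 2 (adjusted p up to 0.0702). Otc and Asl, the enzymes before and after that step, passed when replicate 7 was left out. Otc stood at 881 ± 143 against 619 ± 118 FPKM (limma log2 change 0.51, adjusted p = 0.107, and limma log2 change 0.58, adjusted p = 0.0295 without replicate 7). Asl stood at 1228 ± 199 against 806 ± 196 FPKM (limma log2 change 0.62, adjusted p = 0.0683, and limma log2 change 0.67, adjusted p = 0.0254 without it). Gls2, the liver glutaminase that frees ammonia from glutamine (chromosome 10, 128194457 to 128210004, plus strand), stood at 608 to 1008 FPKM (median 710) against 195 to 451 FPKM (median 307) (limma log2 change 1.22 ± 0.17 SE, adjusted p = 0.00335), also without overlap.

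The 4 enzymes that break histidine down to glutamate were all called higher. Hal, which removes the ammonia in the first step (chromosome 10, 93488768 to 93519304, plus strand), stood at 213 to 827 FPKM (median 515) against 96.6 to 250.5 FPKM (median 159) (limma log2 change 1.64 ± 0.34 SE, adjusted p = 0.0433). Replicate 7, at 213 FPKM, lay inside the control range. The call of Hal ended without Tbx3 KO replicates 1, 2, 3, 4 or 5, sgGFP replicates 1 or 2, sgLacZ replicates 1 or 2 (adjusted p up to 0.114). Uroc1, the next enzyme, rose from 1290.1 ± 178 to 2057 ± 364 FPKM (limma log2 change 0.66 ± 0.13 SE, adjusted p = 0.0369). The call of Uroc1 ended without Tbx3 KO replicates 1, 2, 3, 4, 5 or 6, sgGFP replicates 1 or 3, sgLacZ replicates 1 or 2 (adjusted p up to 0.0947). Amdhd1, which opens the ring, rose from 178 ± 42.0 to 389.7 ± 111 FPKM (limma log2 change 1.09 ± 0.20 SE, adjusted p = 0.0237). The call of Amdhd1 ended without Tbx3 KO replicates 1, 2, 3, 4 or 5, sgGFP replicate 1, sgLacZ replicates 1 or 2 (adjusted p up to 0.0728). Ftcd, which hands the formimino group on to folate, was the firmest of them at 1037 to 1769 FPKM (median 1683) against 706 to 982 FPKM (median 805) (limma log2 change 0.90 ± 0.13 SE, adjusted p = 0.00346), with no overlap and a call that held whichever liver was left out. Replicate 7 lay inside the control range in Uroc1, at 1342 FPKM, and in Amdhd1, at 208 FPKM. Uroc1, Amdhd1 and Ftcd were looked up after the values were seen. So were Sfxn1, the mitochondrial serine carrier, which rose from 297 ± 53.03 to 604 ± 98.9 FPKM (limma log2 change 1.02 ± 0.13 SE, adjusted p = 0.00179), and Gldc, the glycine decarboxylase, which rose from 63.6 ± 17.4 to 130.1 ± 25.9 FPKM (limma log2 change 1.05 ± 0.19 SE, adjusted p = 0.0221). The call of Gldc ended without Tbx3 KO replicates 2 or 4, sgLacZ replicate 1 (adjusted p up to 0.0588). Over 30 tested enzymes of amino acid breakdown and one-carbon metabolism, a list that holds none of these 6 genes, none rose and Bckdhb fell, while 27 of 30 changes were above 0 (median 0.31). Such a lean was not particular to this list. Changes above 0 made up 18 of 24 hepatocyte transcription factors (median 0.27) and 21 of 27 plasma proteins (median 0.23), but 14 of 28 fatty acid oxidation genes. Without replicate 7, where 1.23% of all genes tested rose, 5 of the 30 amino acid and one-carbon enzymes rose (Hpd, Gnmt, Bhmt, Agxt and Cdo1). That count ran from 1 to 12 over the alternatives.

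Further periportal members were steroid and xenobiotic enzymes. Hsd17b6, a hydroxysteroid dehydrogenase (chromosome 10, 127990936 to 128007611, minus strand), stood at 477 to 1642 FPKM (median 836) against 83.3 to 375 FPKM (median 172) (limma log2 change 2.26 ± 0.34 SE, adjusted p = 0.00504), without overlap. Cyp2f2, a cytochrome P450 long used as a periportal marker (chromosome 7, 27119909 to 27133660, plus strand), stood at 776 to 1269 FPKM (median 982) against 229 to 595 FPKM (median 472) (limma log2 change 1.29 ± 0.21 SE, adjusted p = 0.00894), also without overlap. Hsd17b13, a protein of lipid droplets, rose from 922 ± 56.7 to 1627 ± 416 FPKM (limma log2 change 0.78 ± 0.15 SE, adjusted p = 0.0335). The call of Hsd17b13 ended without Tbx3 KO replicates 1, 2, 4 or 6, sgGFP replicates 1, 2, 3 or 4, sgLacZ replicates 1 or 2 (adjusted p up to 0.0864). Rida, an enzyme that clears reactive imines, was among the 5 most abundant genes that rose (3606 ± 558 against 2045 ± 401 FPKM, limma log2 change 0.82 ± 0.14 SE, adjusted p = 0.0178). Replicate 7 lay at 2423 FPKM, inside the control range. The call of Rida ended without sgGFP replicate 1 (adjusted p up to 0.0527).

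**Figure D2:**
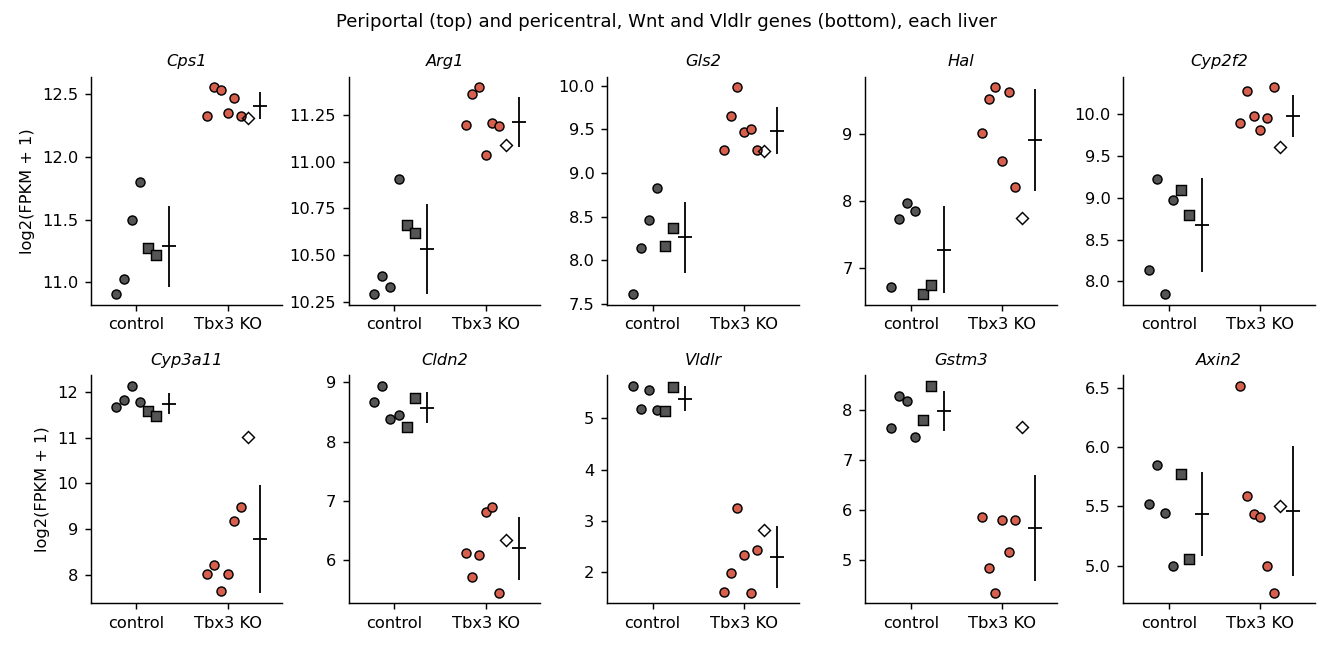
Each point is a liver, on log2(FPKM + 1), with circles for sgGFP and Tbx3 KO, squares for sgLacZ and an open diamond for Tbx3 KO replicate 7; bars give mean ± SD. Cps1, Arg1, Gls2 and Cyp2f2 were higher in all 7 Tbx3 KO livers than in any control and Cldn2 and Vldlr lower, while in Cyp3a11 and Gstm3 replicate 7 lay nearest the controls and Axin2 overlapped.

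The pericentral genes that passed with all livers were all lower. Of 25 tested pericentral genes, 4 fell and none rose, where 0.38% of all genes tested fell. The median change was -0.039, close to the median over all genes. Without replicate 7, 5 fell and 2 rose (Oat and Rhbg), where 2.15% of all genes tested fell and 1.23% rose. The main count was 2 without Tbx3 KO replicate 1, 2, 3 or 4 or sgGFP replicate 1. Cyp3a11, the most abundant drug-metabolising P450 of its family in mouse liver (chromosome 5, 145854426 to 145879964, minus strand), stood at 199.7 to 2051 FPKM (median 299) in Tbx3 KO and 2839 to 4469.9 FPKM (median 3366) in control (limma log2 change -2.94 ± 0.42 SE, adjusted p = 0.00388). No Tbx3 KO liver reached the control range, yet replicate 7, at 2051 FPKM, lay nearest to it, and the mean of the other 6 was 385 ± 209 FPKM. Gstm3, a glutathione transferase, fell from 257 ± 70.2 to 64.1 ± 61.7 FPKM (limma log2 change -2.32 ± 0.40 SE, adjusted p = 0.0152), with replicate 7 at 199.9 FPKM inside the control range. Slc13a3, a dicarboxylate carrier, fell from 30.3 ± 5.21 to 12.6 ± 6.44 FPKM (limma log2 change -1.29 ± 0.24 SE, adjusted p = 0.0226). The call of Slc13a3 ended without Tbx3 KO replicates 1, 2, 3 or 4, sgGFP replicates 1 or 2 (adjusted p up to 0.0615). Ahr, the dioxin receptor, fell from 110.4 ± 23.9 to 65.1 ± 11.5 FPKM (limma log2 change -0.75 ± 0.16 SE, adjusted p = 0.0495). The call of Ahr ended without Tbx3 KO replicates 1, 2, 3, 4, 5 or 6, sgGFP replicates 1, 3 or 4, sgLacZ replicates 1 or 2 (adjusted p up to 0.127).

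Nearly all Wnt target genes tested did not pass. Of 17 tested genes of Wnt/beta-catenin feedback and targets, only Tnfrsf19 was called, with or without replicate 7. Among all genes tested, 0.68% were called, and 3.39% without replicate 7. Tnfrsf19, a receptor of the tumour necrosis factor family, stood at 4.56 to 14.7 FPKM (median 6.87) against 15.0 to 43.6 FPKM (median 27.8) (limma log2 change -1.64 ± 0.29 SE, adjusted p = 0.0179). The groups came within a fraction of an FPKM of each other, replicate 7 being the highest Tbx3 KO liver. The call of Tnfrsf19 ended without sgGFP replicate 1 (adjusted p up to 0.0527). Values of 4 well-known genes of the central zone are given although they were picked by name. Axin2, a feedback inhibitor of the pathway, stood at 26.3 to 90.6 FPKM (median 42.2) against 30.9 to 56.7 FPKM (median 43.6) (limma log2 change 0.022, adjusted p = 0.978), and the groups overlapped throughout. Glul, glutamine synthetase, stood at 511 ± 157 against 688 ± 237 FPKM (limma log2 change -0.41, adjusted p = 0.53), Cyp2e1 at 3542 ± 1067 against 3677 ± 1321 FPKM (limma log2 change -0.049, adjusted p = 0.958) and Lgr5 at 2.20 ± 0.761 against 2.92 ± 1.07 FPKM (limma log2 change -0.28, adjusted p = 0.686). Ctnnbip1, an inhibitor that binds beta-catenin and was named after its values were seen, rose from 18.97 ± 5.46 to 36.4 ± 6.55 FPKM (limma log2 change 0.92 ± 0.18 SE, adjusted p = 0.0273). The call of Ctnnbip1 ended without Tbx3 KO replicates 1, 3, 4 or 6, sgGFP replicate 1, sgLacZ replicates 1 or 2 (adjusted p up to 0.0783).

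The firmest decreases were in membrane proteins, carriers and P450 enzymes. Cldn2, a claudin that forms cation pores in tight junctions and was named after its values were seen, stood at 43.0 to 118 FPKM (median 68.6) in Tbx3 KO and 304 to 491 FPKM (median 378) in control (limma log2 change -2.37 ± 0.21 SE, adjusted p = 5.61e-05). All 7 Tbx3 KO livers, with replicate 7 at 80.2 FPKM, lay far below every control. Cyp2c38, a P450 with many close relatives (chromosome 19, 39389556 to 39463075, minus strand), stood at 14.9 to 45.7 FPKM (median 41.3) against 221 to 539 FPKM (median 364) (limma log2 change -3.42 ± 0.29 SE, adjusted p = 4.12e-05), and replicate 7 was among the lowest. Serpina7, the thyroxine-binding globulin (chromosome X, 139079257 to 139085236, minus strand), stood at 12.6 to 112 FPKM (median 27.4) against 291 to 626 FPKM (median 551) (limma log2 change -3.95 ± 0.40 SE, adjusted p = 0.000118), with replicate 7 the highest Tbx3 KO liver and still below every control. Adgrg2, an adhesion G protein-coupled receptor (chromosome X, 160390690 to 160498070, plus strand), stood at 0 to 22.9 FPKM (median 13.1) against 131 to 185 FPKM (median 146) (limma log2 change -4.05 ± 0.55 SE, adjusted p = 0.00309).

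The furthest falls by fold were in organic anion transporters. Slc22a27 (chromosome 19, 7864388 to 7966027, minus strand) stood at 0 to 8.45 FPKM (median 1.52) in Tbx3 KO and 31.6 to 64.5 FPKM (median 50.3) in control (limma log2 change -4.38 ± 0.50 SE, adjusted p = 0.000438). Its neighbour Slc22a29 stood at 0 to 2.37 FPKM (median 0) against 10.01 to 43.2 FPKM (median 25.4) (limma log2 change -4.17 ± 0.41 SE, adjusted p = 0.000111), 4 of the Tbx3 KO livers being listed at 0. The groups did not overlap in either gene, but the transporters of this cluster are near copies, so the split of reads among them is uncertain. Rcan2, an inhibitor of calcineurin, fell from 142 ± 35.4 to 21.7 ± 17.2 FPKM (limma log2 change -3.03 ± 0.47 SE, adjusted p = 0.00667), and replicate 7 was the highest Tbx3 KO liver, at 54.0 FPKM. Themis, better known from developing T cells, stood at 24.5 ± 21.6 against 111 ± 32.2 FPKM (limma log2 change -2.65 ± 0.55 SE, adjusted p = 0.0423). The call of Themis ended without Tbx3 KO replicates 1, 2, 3, 4 or 5, sgGFP replicates 1, 2 or 4, sgLacZ replicates 1 or 2 (adjusted p up to 0.0977). Sdcbp2, a scaffold protein, stood at 1.05 ± 1.39 against 12.4 ± 7.68 FPKM (limma log2 change -2.75 ± 0.50 SE, adjusted p = 0.0203). The call of Sdcbp2 ended without Tbx3 KO replicates 1 or 4, sgGFP replicates 1 or 2, sgLacZ replicate 1 (adjusted p up to 0.0585).

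Among the most abundant genes that fell, changes were smaller. Aplp2, a relative of the amyloid precursor protein, stood at 5159 ± 500.3 against 7451 ± 842 FPKM (limma log2 change -0.53 ± 0.10 SE, adjusted p = 0.0221), without overlap. The call of Aplp2 ended without Tbx3 KO replicates 1, 2 or 4, sgGFP replicates 1 or 2 (adjusted p up to 0.0673). Ptp4a2, a phosphatase, stood at 840.1 ± 52.3 against 1246 ± 213 FPKM (limma log2 change -0.55 ± 0.10 SE, adjusted p = 0.0247). The call of Ptp4a2 ended without Tbx3 KO replicates 1, 2, 3 or 5, sgGFP replicates 1 or 2 (adjusted p up to 0.0769). The calls of Aplp2 and Ptp4a2 also ended when each liver was scaled to a common median. Mup-ps16, a pseudogene of the major urinary proteins whose reads may come from its relatives, stood at 584 ± 505 against 2254 ± 702 FPKM (limma log2 change -2.31 ± 0.47 SE, adjusted p = 0.0381). The call of Mup-ps16 ended without Tbx3 KO replicates 1, 2, 3, 4 or 6, sgGFP replicates 1, 2 or 4, sgLacZ replicates 1 or 2 (adjusted p up to 0.093).

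Among genes of lipid handling, Vldlr and 3 lipid droplet genes fell, and none of the listed genes of fatty acid, triglyceride or cholesterol synthesis, which do not include Mogat1, passed. Vldlr, the receptor of very low density lipoprotein (chromosome 19, 27216484 to 27254231, plus strand), stood at 2.047 to 8.53 FPKM (median 4.07) in Tbx3 KO and 34.4 to 48.8 FPKM (median 40.6) in control (limma log2 change -3.09 ± 0.27 SE, adjusted p = 4.12e-05). It was low in every Tbx3 KO liver, replicate 7 included at 6.09 FPKM, and was the only called gene among 27 of lipoprotein assembly and remodelling. That list leaves out the apolipoprotein gene Apof, which rose (limma log2 change 0.50, adjusted p = 0.0179). The call of Apof ended without sgGFP replicate 1 (adjusted p up to 0.0527). Of 24 tested lipid droplet genes, 3 fell and Hsd17b13 rose, where 0.38% of all genes tested fell and 0.299% rose. The median change of the 24 was -0.24. Without replicate 7, where 2.15% of all genes tested fell, 6 of the 24 fell. The main count was 5 without sgGFP replicate 3 and 1 without Tbx3 KO replicate 1, 2, 4 or 5, sgGFP replicate 1, 2 or 4, or either sgLacZ liver, and 2 without Tbx3 KO replicate 3. Plin4, a droplet coat protein, stood at 96.9 to 219 FPKM (median 163) against 294 to 591 FPKM (median 464) (limma log2 change -1.49 ± 0.20 SE, adjusted p = 0.00223), without overlap. Cidec, which fuses droplets, fell from 554 ± 134 to 181 ± 109.6 FPKM (limma log2 change -1.84 ± 0.38 SE, adjusted p = 0.0419). In it replicate 7 lay just above the lowest control. The call of Cidec ended without Tbx3 KO replicates 1, 2, 3, 4 or 5, sgGFP replicates 1, 2 or 4, sgLacZ replicates 1 or 2 (adjusted p up to 0.0947). Mogat1, which makes diacylglycerol, fell from 58.0 ± 25.8 to 14.5 ± 8.32 FPKM (limma log2 change -2.06 ± 0.44 SE, adjusted p = 0.0486). The call of Mogat1 ended without Tbx3 KO replicates 1, 2, 4, 5 or 6, sgGFP replicates 1, 2 or 4, sgLacZ replicates 1 or 2 (adjusted p up to 0.123).

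None of 23 tested genes of fatty acid and triglyceride synthesis, 27 of cholesterol synthesis or 28 of fatty acid oxidation passed, and their median changes were -0.064, 0.032 and -0.00061. The member nearest the threshold in the first list was the elongase Elovl6, at 388 ± 123 against 669 ± 215 FPKM (limma log2 change -0.78, adjusted p = 0.135). In the second it was the sterol isomerase Ebp, at 419 ± 79.7 against 288 ± 54.3 FPKM (limma log2 change 0.54, adjusted p = 0.114), which passed without replicate 7 (limma log2 change 0.62, adjusted p = 0.0254). In the third it was the thiolase Acaa1b, at 3642 ± 764 against 5066 ± 836 FPKM (limma log2 change -0.49, adjusted p = 0.156). Of 27 bile acid genes only Abcc4, an exporter, was called, falling from 26.4 ± 5.72 to 11.2 ± 5.71 FPKM (limma log2 change -1.26 ± 0.27 SE, adjusted p = 0.0455). The call of Abcc4 ended without Tbx3 KO replicates 1, 2, 3, 4, 5 or 6, sgGFP replicates 1, 2, 3 or 4, sgLacZ replicates 1 or 2 (adjusted p up to 0.0993). Without replicate 7, 4 bile acid genes rose (Cyp2c70, Akr1d1, Slc27a5 and Abcb11) and 2 fell, where 1.23% of all genes tested rose and 2.15% fell.

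The promoters of the called genes were searched for the T-box half-site GGTGTGA and its reverse complement TCACACC, from 250 bases before to 50 after each RefSeq start site (GRCm38.p6). At least 1 match was found in 3 of the 39 higher genes with a promoter in the table (7.69%) and in 2 of the 54 lower genes (3.7%), against 4.28% of the 12491 tested genes that had one. Without replicate 7 the shares were 6.71% of 164 higher and 3.45% of 290 lower genes. Among the called genes, the matches lay in Meg3, Ctnnbip1, Cidec, Adgrv1 and 1 unnamed locus. The windows of 3 of these are shown because they are the called genes described above that hold the letters a T-box factor is known to bind, each written on the strand of its gene with the matches in capitals.
Meg3, chr12:109545148-109545447, plus strand: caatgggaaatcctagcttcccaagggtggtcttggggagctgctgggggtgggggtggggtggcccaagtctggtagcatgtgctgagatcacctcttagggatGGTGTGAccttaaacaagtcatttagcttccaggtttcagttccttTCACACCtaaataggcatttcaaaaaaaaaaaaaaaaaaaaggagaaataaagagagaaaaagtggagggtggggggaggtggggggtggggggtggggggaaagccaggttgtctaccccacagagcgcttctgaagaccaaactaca
Ctnnbip1, chr4:149544867-149545166, plus strand: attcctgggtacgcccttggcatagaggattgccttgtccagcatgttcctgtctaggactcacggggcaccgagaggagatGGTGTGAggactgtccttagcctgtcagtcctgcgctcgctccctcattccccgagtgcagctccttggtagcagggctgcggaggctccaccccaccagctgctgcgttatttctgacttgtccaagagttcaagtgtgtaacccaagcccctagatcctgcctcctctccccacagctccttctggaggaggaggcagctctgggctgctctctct
Cidec, chr6:113434715-113435014, minus strand: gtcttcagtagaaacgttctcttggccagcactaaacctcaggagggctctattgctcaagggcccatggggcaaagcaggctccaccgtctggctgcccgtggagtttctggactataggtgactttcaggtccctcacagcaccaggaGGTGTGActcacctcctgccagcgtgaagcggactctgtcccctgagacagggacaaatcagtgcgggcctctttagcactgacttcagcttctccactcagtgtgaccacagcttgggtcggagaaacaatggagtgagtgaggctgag
The window of Meg3 is that of its inner start site and held 2 matches, beginning 145 and 99 bases before the start, on opposite strands. In Ctnnbip1 the match began 168 bases before the start and in Cidec 100 bases before. The windows of Sult1e1, Igfbp2, Vldlr and Cldn2 held none. A match describes the sequence, and binding was not measured here.

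Genes that differ between male and female livers changed in small numbers. Of 26 tested male-biased genes, Susd4 and Cyp2f2 rose and none fell, and of 17 female-biased genes Ntrk2 rose and Slc22a27, Cyp2a4 and Cyp3a44 fell. Slc22a27 was the 1 female-biased gene that still fell without Tbx3 KO replicate 1, 2, 3, 4 or 5, sgGFP replicate 1 or 2, or either sgLacZ liver. Cyp2a4, a steroid hydroxylase with a near-identical copy, fell from 49.2 ± 20.0 to 10.1 ± 13.7 FPKM (limma log2 change -2.74 ± 0.55 SE, adjusted p = 0.0355). The call of Cyp2a4 ended without Tbx3 KO replicates 1, 2, 3, 4, 5 or 6, sgGFP replicates 1 or 2, sgLacZ replicates 1 or 2 (adjusted p up to 0.0947). Cyp3a44 fell from 13.1 ± 5.31 to 2.25 ± 3.44 FPKM (limma log2 change -2.56 ± 0.49 SE, adjusted p = 0.0273). The call of Cyp3a44 ended without Tbx3 KO replicates 1, 2, 3, 4 or 5, sgGFP replicates 1, 2 or 4, sgLacZ replicates 1 or 2 (adjusted p up to 0.0685). Kdm5d, on the Y chromosome, was present in all 13 livers, at 92.7 to 141 FPKM. None of 18 major urinary protein genes in the list, which leaves out Mup-ps16, passed. Mup21 came nearest, at 22.01 to 117 FPKM (median 71.8) against 3.15 to 42.4 FPKM (median 19.8) (limma log2 change 1.93, adjusted p = 0.107), and passed without replicate 7 (limma log2 change 2.20, adjusted p = 0.0254). In the growth hormone and STAT5 axis, Igfbp2 and Lifr rose and none of the other 17 passed. Lifr, the receptor of leukaemia inhibitory factor, stood at 914 ± 159 against 609 ± 91.9 FPKM (limma log2 change 0.58 ± 0.12 SE, adjusted p = 0.0465). The call of Lifr ended without Tbx3 KO replicates 1, 2, 3, 4 or 5, sgGFP replicates 1, 2 or 3, sgLacZ replicates 1 or 2 (adjusted p up to 0.124).

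Markers of connective tissue and scar-associated macrophages depended on replicate 7. With all 7 Tbx3 KO livers none of 28 stellate cell and myofibroblast markers passed, although 25 of the changes were below 0 (median -0.67). Without replicate 7, where 2.15% of all genes tested fell, 11 of the 28 fell. That count in turn was 0 without any of Tbx3 KO replicates 2, 3 and 5 or sgGFP replicate 1, 2 without sgGFP replicate 3, 4 without sgLacZ replicate 1, and 7 without Tbx3 KO replicate 1 or 4 or sgGFP replicate 2. Col1a1, the main fibrillar collagen, stood at 2.86 to 46.0 FPKM (median 8.72) in Tbx3 KO and 18.5 to 71.0 FPKM (median 25.8) in control (limma log2 change -1.70, adjusted p = 0.2). The highest Tbx3 KO liver was replicate 7, and without it the mean was 9.38 ± 8.58 FPKM (limma log2 change -2.06, adjusted p = 0.0359). Lrat, the retinol-storing enzyme of resting stellate cells, stood at 24.6 to 64.5 FPKM (median 37.5) against 47.2 to 72.0 FPKM (median 62.2) (limma log2 change -0.68, adjusted p = 0.155), with replicate 7 inside the control range and the other 6 below it, and passed without replicate 7 (limma log2 change -0.81, adjusted p = 0.0259). The summed level of the 28 markers was 2325 to 4301 FPKM in Tbx3 KO and 3084 to 4936 in control.

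The same held for 14 markers of lipid-associated macrophages, of which none passed (median -1.04). Without replicate 7, where 2.15% of all genes tested fell, 7 of the 14 fell. That count was 2 when Tbx3 KO replicate 2, 3 or 5 or sgGFP replicate 1 was also left out, and 3 or 4 without Tbx3 KO replicate 1, sgGFP replicate 2 or 3 or either sgLacZ liver. Gpnmb, a glycoprotein of these cells, ranged from 0.249 to 86.6 FPKM (median 1.79) in Tbx3 KO and 8.82 to 47.9 FPKM (median 13.8) in control (limma log2 change -1.98, adjusted p = 0.305). Replicate 7, at 86.6 FPKM, was above every control, and the mean of the other 6 was 2.98 ± 3.58 FPKM (limma log2 change -2.67, adjusted p = 0.0225). The summed level of these markers was 1923 to 5921 FPKM in Tbx3 KO and 4246 to 6504 in control, with replicate 7 the highest Tbx3 KO liver. Of 19 Kupffer cell and macrophage markers none passed, and without replicate 7 Marco, a scavenger receptor, rose (16.5 ± 12.6 against 3.496 ± 2.25 FPKM over all 7 and 6 livers, limma log2 change 1.85, adjusted p = 0.0478 without it). No marker of cholangiocytes, endothelial cells, lymphocytes, neutrophils and dendritic cells or blood passed with all livers. Without replicate 7, Cldn7 fell among 13 cholangiocyte markers, and Csf3r and Cd74 fell among 12 of neutrophils and dendritic cells. What part these cells had in the changes of other genes was not tested. None of 23 tested cell cycle genes passed in either fit. With all livers 20 of their changes were below 0 (median -0.33), and without replicate 7 all 23 were (median -0.60).

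**Figure D3:**
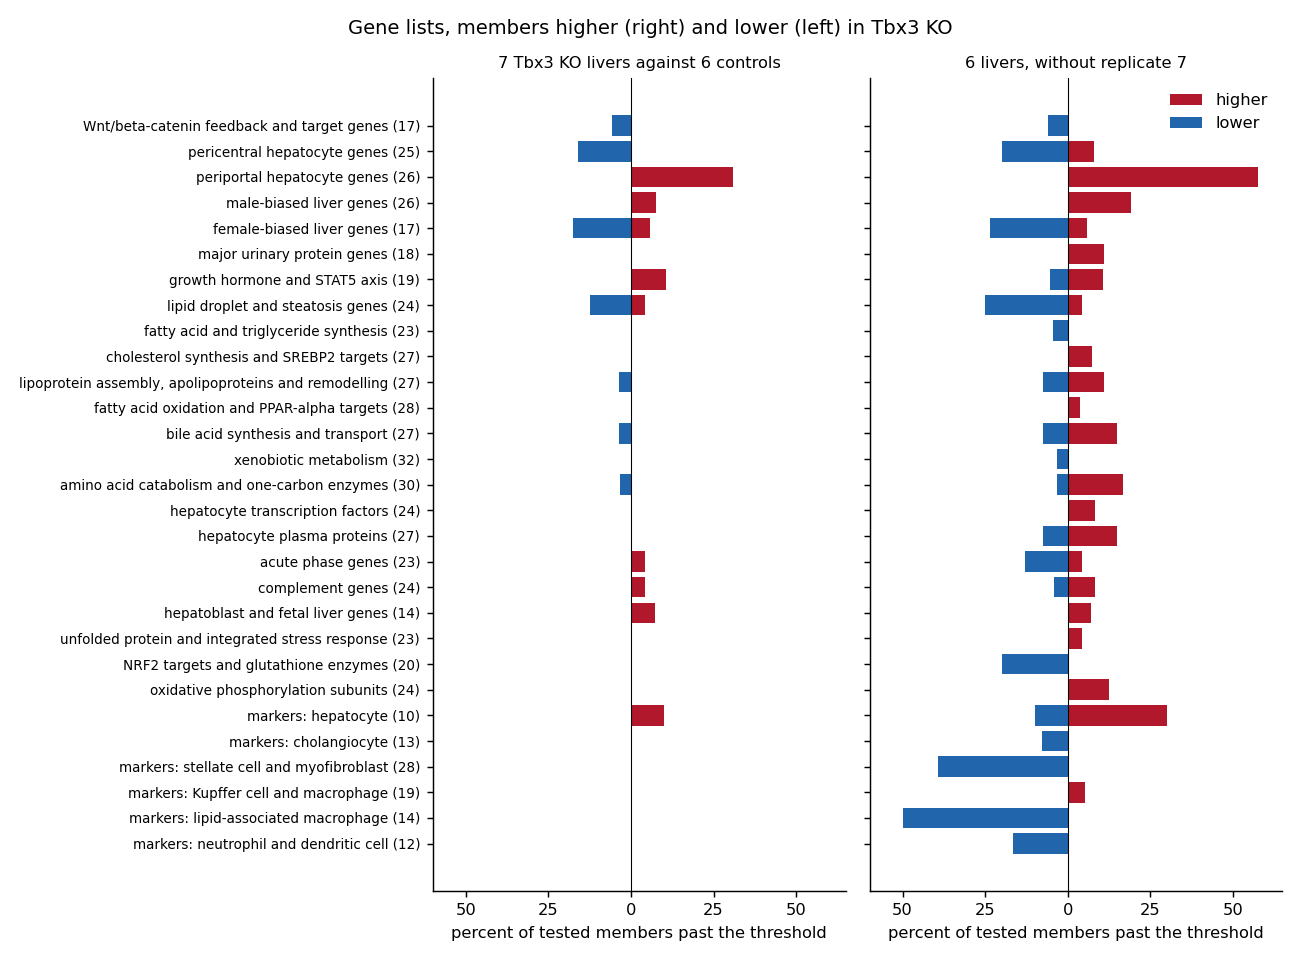
Bars give the percent of tested members of each list (number tested in brackets) that were higher (red, to the right) or lower (blue, to the left) in Tbx3 KO, for all 7 livers on the left and without replicate 7 on the right; lists with no member called in either are left out. Periportal genes were called higher in both panels, 8 and then 15 of 26, while stellate cell and lipid-associated macrophage markers, 0 of 28 and 0 of 14 with all livers, were called lower, 11 and 7, without replicate 7. Over all genes tested, 0.299% were higher and 0.38% lower with all livers, and 1.23% and 2.15% without replicate 7.

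Other gene groups gave single calls. C9, the last component of the complement attack complex, rose from 554 ± 89.6 to 883 ± 149 FPKM (limma log2 change 0.67 ± 0.12 SE, adjusted p = 0.0221) as the only called gene among 24 of complement. The call of C9 ended without Tbx3 KO replicate 4, sgGFP replicate 1, sgLacZ replicate 2 (adjusted p up to 0.0685). Bckdhb, a subunit of the enzyme that commits branched-chain amino acids to breakdown, fell from 1079 ± 133 to 780.4 ± 71.6 FPKM (limma log2 change -0.46 ± 0.09 SE, adjusted p = 0.0391). The call of Bckdhb ended without Tbx3 KO replicates 1, 2, 3 or 5, sgGFP replicates 1 or 2, sgLacZ replicates 1 or 2 (adjusted p up to 0.0947). None of 32 xenobiotic, 24 hepatocyte transcription factor, 27 plasma protein, 20 NRF2 target, 24 oxidative phosphorylation, 24 interferon-stimulated, 23 stress response or 19 circadian clock genes passed with all livers. The xenobiotic and NRF2 lists leave out Cyp3a11, Cyp2c38, Gstm3, Ahr and Cbr1, which fell (Cbr1: limma log2 change -0.52, adjusted p = 0.0387). The oxidative phosphorylation list leaves out the subunit Cox7b, which rose (limma log2 change 0.585, adjusted p = 0.0382). The calls of Cbr1 and Cox7b each ended without any 1 of 11 livers. Without replicate 7, Hnf4a, a master regulator of hepatocytes, was higher (limma log2 change 0.39, adjusted p = 0.0268). So were 3 listed subunits of oxidative phosphorylation (Ndufb9, Uqcrc1 and Cox5b). The listed NRF2 targets Srxn1, Slc7a11, Taldo1 and Cbr3 were lower without replicate 7. In that fit 1.23% of all genes tested were higher and 2.15% lower.

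How replicate 7 differed from the other Tbx3 KO livers was described on genes that were called without it. On a scale with 0 at the control mean and 1 at the mean of the other 6 Tbx3 KO livers, replicate 7 had a median position of 0.0696 over those 588 genes, and it lay nearer Tbx3 KO than control in 149 of them (25.3%). The other Tbx3 KO livers, each on the 56 to 92 genes called without it, stood at 0.87 to 1.12, and the 6 controls at -0.0999 to 0.37. Since the sets differ in size, replicate 7 was also placed on the 60 genes with the smallest p without it, a number chosen after the data were seen. There its median position was 0.366, and it lay beyond every control, in the direction of Tbx3 KO, in 32 of 60 genes. Over all 588 it did so in 163 (27.7%). It lay above every control in 69 of the 214 higher genes (32.2%), against 18.6% of all genes tested. It lay below every control in 94 of the 374 lower genes (25.1%), against 8.97% of all genes tested.

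Which genes replicate 7 shared with the other Tbx3 KO livers varied by group. It lay above every control in 11 of the 15 periportal genes called higher without it and below every control in 3 of the 5 pericentral genes called lower. It lay below every control in none of the 11 stellate cell markers, none of the 7 lipid-associated macrophage markers and 2 of the 6 lipid droplet genes called lower without it. Cldn2, Vldlr, Cyp2c38, Igfbp2, Ntrk2 and Cps1 had replicate 7 on the Tbx3 KO side of every control. Sult1e1, Hamp2, Hal, Rida and Gstm3 had it within the control range. So did Susd4, Uroc1, Amdhd1, Cyp2a4, Cyp3a44, Abcc4, Slc13a3 and Cidec.

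**Figure D4:**
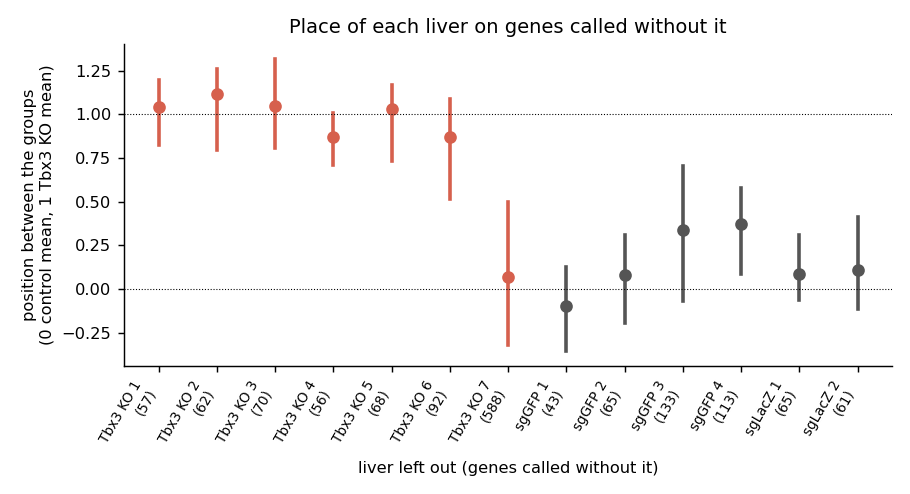
For each liver on the x axis, with the number of genes called without it in brackets, the point gives its median position on those genes and the bar the quartiles, on a y axis where 0 is the control mean and 1 the Tbx3 KO mean. Tbx3 KO replicates 1 to 6 lie at 0.87 to 1.12, and replicate 7, at 0.0696, lies among the controls.

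The 2 control guides were compared with each other by the same test. No gene differed between the 4 sgGFP and 2 sgLacZ livers in limma's test, with 819 genes at an unadjusted p under 0.05, and no gene did with a pseudocount of 0.1 either (814 at an unadjusted p under 0.05).

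To see which changes set Tbx3 KO apart from the other knockouts, its livers were compared with the mean of the 4 other knockout groups in a fit of all 34 livers. This contrast uses the same 7 Tbx3 KO livers but no control liver. It called 409 genes (2.36%), 211 higher in Tbx3 KO (1.22%) and 198 lower (1.14%). Of the 52 genes higher than control, 33 were among those 211, and of the 66 lower, 37 were among those 198. Of the genes called against control without replicate 7, 63 of 214 higher and 61 of 374 lower were among the same 409, smaller shares of longer lists. Leaving out 1 Tbx3 KO liver moved the count from 220, without replicate 1, to 634, without replicate 7, and without replicates 2 and 3 it stood at 262 and 255.

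Cldn2 was lower in every Tbx3 KO liver than in any liver of the other knockouts. Its highest Tbx3 KO liver stood at 118 FPKM, while the means of the other knockouts were 291 (Bcl6), 355 (Irs1), 358 (Smyd2) and 331 FPKM (Srebf1), and none of their livers fell below 245 FPKM (limma log2 difference -2.16, adjusted p = 1.5e-12). Sult1e1 averaged 94.6 FPKM over the other knockout groups (limma log2 difference 5.18, adjusted p = 5.54e-07), and its highest liver among them, in Bcl6 KO, stood at 318 FPKM, below replicate 7. Vldlr averaged 27.2 FPKM over those groups (limma log2 difference -2.27, adjusted p = 4.7e-07) but was also low in Irs1 KO, at 5.78 to 18.3 FPKM. Cyp3a11 averaged 2534 FPKM (limma log2 difference -2.35, adjusted p = 1.56e-06), and Meg3 averaged 1.21 FPKM with no liver of the other knockouts above 3.63 (limma log2 difference 2.28, adjusted p = 4.74e-07).

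Periportal genes were in part higher in the other knockouts too. Cps1 averaged 4079 FPKM over them and still passed (limma log2 difference 0.47, adjusted p = 0.042), although Irs1 KO, at 4837 to 6486 FPKM, covered the Tbx3 KO range. Arg1 (limma log2 difference 0.50, adjusted p = 0.000185), Gls2 (limma log2 difference 0.56, adjusted p = 0.0177), Cyp2f2 (limma log2 difference 1.23, adjusted p = 1.42e-06) and Ftcd (limma log2 difference 0.67, adjusted p = 8.2e-07) passed, while Hal (limma log2 difference 0.63, adjusted p = 0.117) and Hsd17b6 (limma log2 difference 0.69, adjusted p = 0.148) did not. Of the 26 periportal genes, 7 were higher in Tbx3 KO than in the other knockouts and none lower (median 0.25). Among all genes tested, 1.22% were higher in this contrast.

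Most droplet genes, and all collagen and macrophage markers tested, did not pass against the other knockouts. Cidec averaged 229.5 FPKM over them (limma log2 difference -0.02, adjusted p = 0.99), and Col1a1 (limma log2 difference -0.35, adjusted p = 0.759) and Gpnmb (limma log2 difference -0.33, adjusted p = 0.873) did not pass. None of the 28 stellate cell and 14 lipid-associated macrophage markers passed in this contrast, and of the 24 droplet genes Plin4 was lower and Hsd17b13 higher. Plin4 was about as low in Irs1 KO, at 110 to 249 FPKM (mean 168), as in Tbx3 KO, at 96.9 to 219 FPKM (mean 164). Lifr was the only 1 of the 118 genes called in the opposite direction (limma log2 difference -0.72, adjusted p = 0.00254), with Bcl6 KO at a mean of 7488.5 FPKM and the Tbx3 KO, Irs1 KO, Smyd2 KO and Srebf1 KO means between 709 and 1207 FPKM. Of 17 female-biased genes 8 were lower than the mean of the other knockouts and Ntrk2 was higher, but Bcl6 KO was far above every other group in the 3 that had fallen against control. Cyp2a4 averaged 2617.5 FPKM in Bcl6 KO against 3.27 in Irs1 KO, 12.1 in Smyd2 KO and 28.4 in Srebf1 KO, a range that holds the Tbx3 KO mean. Cyp3a44 averaged 210.5 FPKM in Bcl6 KO and 7.38 to 8.86 in the other 3 groups, and Slc22a27 averaged 173 in Bcl6 KO, 4.14 in Irs1 KO, 22.2 in Smyd2 KO and 37.3 in Srebf1 KO. This contrast was not fitted without Bcl6 KO.

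**Figure D5:**
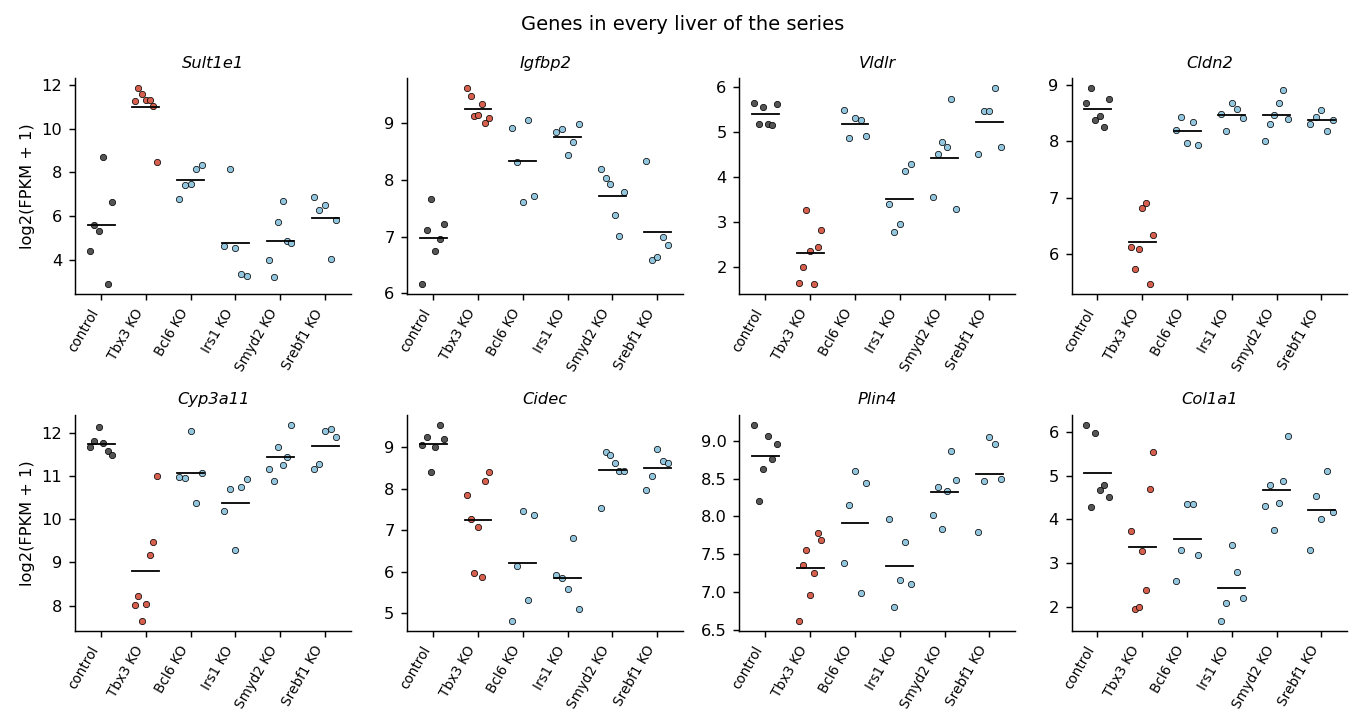
Each point is 1 of the 34 livers, on log2(FPKM + 1), by group (grey control, red Tbx3 KO, blue the other knockouts), with a line at the group mean. Cldn2 and Cyp3a11 were lowest and Sult1e1 highest on average in Tbx3 KO, while Cidec was lower on average in Irs1 KO and Bcl6 KO, and Col1a1 in Irs1 KO, than in Tbx3 KO.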

How the data were processed

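RNA was sequenced from 34 livers, 1 library per liver, of which 13 enter the comparison of Tbx3 KO with control. The authors deposited 1 table of FPKM per gene symbol, and columns were matched to livers by name. Counting used featureCounts 1.6.4, per the submitters' processing notes, which name builds mm10 and GRCh38 without a role. Aligner, annotation and strand setting were not given in the sources used here, so reads of overlapping, antisense or near-identical genes (Cyp2a, Cyp2c, Cyp3a, Slc22, Ces1, Hamp and Mup families) may not be separated. Whole-read steps in the values gave the implied depths, but the reads themselves were not recovered for a count test.

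Values were taken as log2(FPKM + 1), with a pseudocount of 1, and fitted with limma 3.58.1 in R 4.3.3 (empirical Bayes with an intensity trend). p-values were adjusted over 17364 genes by the Benjamini-Hochberg method, with a threshold of 0.05. A change on this scale understates that of low genes. Simulated data with 7 and 6 livers gave back 75% of 100 genes raised by 1 on the log2 scale. They gave back 95% of 100 genes raised by 2, with 12 false calls. The changed genes were drawn from the more abundant ones and only raised, and noise was independent between livers. The shares need not hold for low genes, for falls or for livers that vary together. Replicates 1 to 4 occur in several groups and were not used to pair the livers in the main fit. Named genes were Tbx3, the 12 highest and 12 lowest changes with a mean of 5 FPKM and at least 6 of 7 livers beyond every control, the 5 most abundant called each way, and up to 4 called members of each list, else the member nearest the threshold. Unnamed loci (12 of the 118) were counted only, and genes named outside the rule, among them Otc, Asl, Hamp, Col1a1 and Gpnmb, were picked by name or after their values were seen. A gene that the rule names is not reported here. The members and lists were chosen with earlier results of these data known. Gene positions are from GENCODE M21 on GRCm38 and promoters from RefSeq on GRCm38.p6, both matched by symbol. No protein sequence was used here. Alternatives changed the pseudocount, the filter, the scaling, the controls, the livers in the fit, weights, trend and block, and left out each liver.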

Additional observations from a re-analysis of the deposited data

Results flagged for a closer look

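In 15 of the 146 sets of values looked at (73 named genes in each of 2 groups), 1 liver lay far from the rest of its group. The rule flags about 1 in 20 sets of independent, normal values. These genes were named in part for their changes and share the same livers, so an excess over chance was not tested. Tbx3 KO replicate 7 was that liver 5 times. It was low in Sult1e1, at 349 FPKM against 2072 to 3703 in the other Tbx3 KO livers, in AW549542, at 24.6 against 84.7 to 166, in Rida, at 2423 against 3598 to 4151, and in Mup21, at 22.01 against 57.9 to 117. It was high in Slc13a3, at 26.7 against 8.08 to 12.4 FPKM. In each of these 5 genes its value was nearer to the controls than those of the other Tbx3 KO livers.

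Tbx3 KO replicate 5, the liver with the lowest implied depth, stood apart 4 times. It was high in Aplp2, at 6206 FPKM, and in Gpihbp1, at 79.8, and low in Ifi27, at 748, and in Prf1, listed at 0. Tbx3 KO replicate 3 was listed at 0 for Adgrg2, and Tbx3 KO replicate 6 stood at 2.42 FPKM for Cfd, where the others had at most 0.691. Among the controls, sgGFP replicate 3 was low in Cd36, at 2237 FPKM, sgGFP replicate 2 was low in Ntrk2, at 54.2, and sgGFP replicate 4 was high in Plg, at 1387. sgLacZ replicate 2 was the 1 control with Snord104, at 5.17 FPKM.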

How the results depend on the processing

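No called gene reversed, and 12 of the 118 passed under every alternative run: Ces1b, Cldn2, Cps1, Cyp2c38, Gls2, Igfbp2, Ntrk2, Serpina7, Slc22a29, Sult1e1, Vldlr and 1 unnamed locus. The number of calls, 118 as reported, was 69 with no filter, 523 with all 34 livers in 1 fit, 52 against the sgGFP livers alone, 18 against the 2 sgLacZ livers alone, 278 with array weights and 55 with no intensity trend. Without 1 liver it ran from 43 to 588. It was 93 with a pseudocount of 0.1, 138 with a filter at 5 FPKM, 81 with median scaling and 119 with quantile normalization. Median scaling moved the median change of all genes from -0.059 to 0.046. Without replicate 7 it turned the split of 214 higher and 374 lower into 351 and 228, and quantile normalization gave 231 and 281. Those 588 calls were 1531 with all the other livers in 1 fit and 367 against sgGFP alone, and ran from 171 to 977 without 1 more liver. The 409 calls against the other knockouts ran from 220 to 634 without 1 liver. With the replicate number as a block the main count was 165, 66 of them shared, and without replicate 7 it was 171. Same-numbered livers correlated at -0.0749 to 0.0516. So few pairs cannot show whether livers of the same number belong together, and pairing was not decided. Why counts moved was not tested, beyond there being fewer livers in some. At 2110000 to 3130000 implied reads log2 changes had a median SE of 0.236.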
